A study of Homo sapiens with 24 samples.

Results

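COL3A1 and LUM are 2 of the 12547 genes measured in a study of QKI7 and mRNA stability in U2OS, a human osteosarcoma cell line. They were chosen by name as matrix genes lower in QKI-targeted than in control cells, with results of these data in view. Their level against control cells is therefore described at every time without a test, and so is any comparison that uses the 0 h libraries of sgQKI+EV or sgNS+EV. The choice names no time, so the tests below that use the later libraries of those genotypes are not independent of it. The study sequenced polyA RNA from 24 libraries, with 4 genotypes at 3 times and 2 libraries in each of 12 groups. QKI-targeted cells given back QKI7-WT (sgQKI+QKI7-WT), QKI-targeted cells given back QKI7-△KH (sgQKI+QKI7-△KH) and QKI-targeted cells with EV (sgQKI+EV) were set against cells with sgNS and EV (sgNS+EV), where EV is read as an empty vector and sgNS as a control guide. All groups received 5 µg/mL actinomycin D, which blocks transcription, together with 200 µM sodium arsenite, an oxidative stressor, for 0, 4 or 8 h. There was no arm with actinomycin D alone, so loss under transcription arrest and a response to arsenite cannot be told apart at 4 and 8 h. The column headings name a single QKI guide, and the labels do not say whether the targeted cells are 1 clone or a pool. Nothing in them says that the 2 libraries of a group came from separate cultures, so p-values measure the spread between these libraries, which may be technical.

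COL3A1 encodes the alpha chain of type III collagen, a homotrimeric fibrillar collagen of extensible connective tissues that often lies in the same fibrils as type I collagen. LUM encodes lumican, a small leucine-rich proteoglycan that binds collagen fibrils and influences their diameter and spacing, and that is best known from the cornea and tendon. QKI encodes the Quaking proteins, which bind RNA through a STAR-type KH domain and act in splicing, export, stability and translation. QKI7 is one of its isoforms. By its name, QKI7-△KH lacks the KH domain that contacts RNA.

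The deposited values are a linear signal scaled to ERCC spike-in RNAs, and differences are of log2(value + 1) from 1 limma fit to all libraries, with a standard error (SE). P-values carry a Benjamini-Hochberg adjustment across all 12547 genes (threshold 0.05). A gene is said to have passed, risen or fallen only where it met that threshold. Where libraries of groups are said to lie apart or not to overlap, the share of all genes that did so was not counted. Such separation is therefore a description and no support. Sums over endogenous genes ran between 690400 and 1368000 per library, and correlations between replicates were between 0.9889 and 0.9982. Depth in reads is unknown. QKI itself had 36.0 and 32.7 in sgQKI+EV cells at 0 h, against 60.0 and 48.2 in sgNS+EV cells, so its mRNA was reduced but present in the targeted cells (-0.63, SE 0.14, limma adjusted p = 0.0264). QKI had 60.4 and 46.3 in sgQKI+QKI7-WT cells and 47.6 and 50.2 in sgQKI+QKI7-△KH cells. Whether reads of the add-back constructs are in that row is not given in the sources used here.

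Both genes were examined for the QKI core motif because the study concerns an RNA-binding protein. COL3A1 lies on the forward strand of chromosome 2 from 188974320 to 189012746 and LUM on the reverse strand of chromosome 12 from 91102629 to 91111831 (GRCh38, GENCODE annotation). Transcript COL3A1-201 has 5543 bases in 51 exons, with a 3′UTR of 972 bases. LUM-201 has 3008 bases in 3 exons, with a 3′UTR of 1536 bases. The letters ACTAAC and ACTAAT were searched on the transcript strand alone. ACTAAC was in neither transcript. ACTAAT occurred 1 time in COL3A1-201, in the 3′UTR in exon 51, and is shown because it is the 1 match in either transcript (chr2:189012409-189012438, forward strand, GRCh38, motif in capitals):
COL3A1 3′UTR site: ctggtcaagattACTAATatttgggaaggc
No TAAC or TAAT followed within 20 bases of it. Among 10304 windows of 972 bases from 3′UTRs, 17.36% held ACTAAT and 11.01% held ACTAAC. Among 7556 windows of 1536 bases, 27.32% held ACTAAT and 16.87% held ACTAAC. A match to these letters describes the sequence and is not evidence of binding.

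At 0 h COL3A1 was at a similar level in QKI-targeted cells with the intact add-back and with the empty vector, and lower in both than in control cells. Its values were 27.1 and 27.5 in sgQKI+QKI7-WT cells, 21.9 and 20.6 in sgQKI+QKI7-△KH cells, 26.2 and 26.4 in sgQKI+EV cells, and 51.8 and 53.2 in sgNS+EV cells. The 6 libraries of QKI-targeted cells all lay below both control libraries, and both sgQKI+QKI7-△KH libraries lay below the other 4. The sgQKI+EV mean was 50.2% of the sgNS+EV mean, a difference of -0.97 (SE 0.07), and 24 of 12547 genes had a more negative one. This contrast chose the gene, so its size is no support for it. In it 1.55% of genes passed.

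LUM was lower in sgQKI+EV cells than in control cells at 0 h, but its level in the add-back cells was not that of COL3A1. Its values at 0 h were 27.5 and 20.2 in sgQKI+QKI7-WT cells, 33.0 and 30.1 in sgQKI+QKI7-△KH cells, 20.0 and 21.0 in sgQKI+EV cells, and 35.6 and 32.4 in sgNS+EV cells. The sgQKI+EV libraries lay below both control libraries, the sgQKI+QKI7-△KH libraries overlapped the control ones, and the pair from sgQKI+QKI7-WT cells was wide apart. The sgQKI+EV mean was 60.3% of the sgNS+EV mean, a difference of -0.70 (SE 0.13) that also chose the gene, with 66 genes more negative. In order of their 0 h means, LUM ran sgQKI+EV (20.5), sgQKI+QKI7-WT (23.9), sgQKI+QKI7-△KH (31.6) and sgNS+EV (34.0). Neighbours in that order had overlapping libraries, or, for sgQKI+QKI7-WT and sgQKI+QKI7-△KH, a difference that did not pass.

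**Figure D1:**
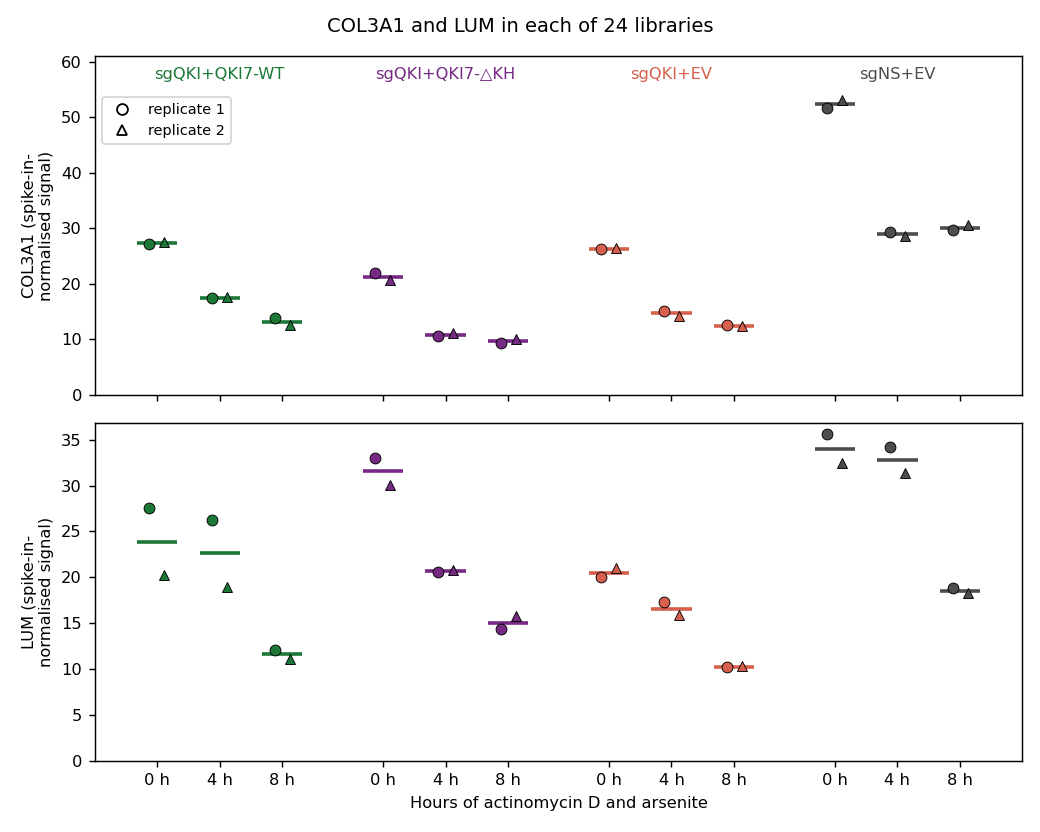
COL3A1 (top) and LUM (bottom) in each library, as the deposited spike-in-normalised signal on a linear axis from 0, by genotype and hours of actinomycin D and arsenite. Circles and triangles are replicates 1 and 2, and bars are means of 2 libraries. COL3A1 in QKI-targeted cells lies below sgNS+EV at each time, while LUM in sgQKI+QKI7-△KH cells at 0 h overlaps sgNS+EV.

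The same contrast at later times is a description too. COL3A1 had 15.2 and 14.1 in sgQKI+EV cells at 4 h, against 29.3 and 28.5 in sgNS+EV cells. At 8 h it had 12.5 and 12.3 in sgQKI+EV cells, against 29.6 and 30.5 in sgNS+EV cells. The groups did not overlap at either time. The share of all genes that separated in this way was not counted, so the separation is no support. The COL3A1 differences were -0.94 at 4 h and -1.21 at 8 h, each with SE 0.07. LUM had 17.3 and 15.9 in sgQKI+EV cells at 4 h, against 34.2 and 31.4 in sgNS+EV cells. At 8 h LUM had 10.2 and 10.4 in sgQKI+EV cells, against 18.8 and 18.3 in sgNS+EV cells. LUM did not overlap either, with differences of -0.94 at 4 h and -0.79 at 8 h, each with SE 0.13. The median of all genes was -0.15 at 4 h and -0.20 at 8 h, 34% of genes passed as lower at 4 h and 34% at 8 h, and 36 genes at 4 h and 18 at 8 h were more negative than COL3A1. Scaled to library totals instead of the spike-in, the differences were -0.92 at 4 h and -0.96 at 8 h for COL3A1, and -0.93 at 4 h and -0.54 at 8 h for LUM.

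In sgQKI+QKI7-WT cells COL3A1 stayed below both control libraries at every time. At 0 h the difference between sgQKI+QKI7-WT and sgQKI+EV cells, which is not tested, was 0.05 (SE 0.07). At 4 h COL3A1 had 17.4 and 17.5 in sgQKI+QKI7-WT cells, above both sgQKI+EV libraries, and was higher (0.24, SE 0.07, limma adjusted p = 0.0132). So were 37.7% of all genes, whose median was 0.20, and with library totals the COL3A1 difference was -0.00068 and did not pass. It was also lost without replicate 2 of sgQKI+EV cells at 4 h (0.19, limma adjusted p = 0.131) and with only the compared groups in the fit (limma adjusted p = 0.446). At 8 h it had 13.8 and 12.5 in sgQKI+QKI7-WT cells and the difference from sgQKI+EV cells was 0.08 (95% interval -0.08 to 0.23, limma adjusted p = 0.641), where 0.526% of genes passed. With library totals the differences at 0 and 8 h were -0.05 and -0.09.

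Against control cells, COL3A1 in sgQKI+QKI7-WT cells stood at 52.1% of the sgNS+EV mean at 0 h, 60.5% at 4 h and 43.8% at 8 h. The differences were -0.92 at 0 h, -0.69 at 4 h and -1.14 at 8 h, each with SE 0.07, and 2 genes were more negative than COL3A1 at 8 h. COL3A1 was chosen as lower in QKI-targeted than in control cells, so these sizes and this rank are no support. QKI mRNA in the same comparison differed by -0.02 at 0 h, -0.34 at 4 h and -0.31 at 8 h, each with SE 0.14, and did not pass at any time.

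COL3A1 was lower in sgQKI+QKI7-△KH cells than in sgQKI+EV cells at 4 and 8 h, while the median of all genes on the spike-in scale was higher. At 4 h it had 10.5 and 11.1, and at 8 h 9.38 and 9.95, in sgQKI+QKI7-△KH cells, and at each of the 3 times both libraries lay below both sgQKI+EV libraries. The differences were -0.41 at 4 h (SE 0.07, limma adjusted p = 0.00824) and -0.33 at 8 h (SE 0.07, limma adjusted p = 0.00220). COL3A1 was among the 0.0558% of genes lower at 4 h and the 0.0717% lower at 8 h, where the medians of all genes were 0.11 and 0.25. At 0 h, where the sgQKI+EV libraries chose the gene and no test is given, the difference was -0.30 (SE 0.07) and the median of all genes 0.19. With library totals the differences were -0.54 at 0 h, -0.57 at 4 h and -0.60 at 8 h, and those at 4 and 8 h passed. At 4 h the call was lost without replicate 2 of sgQKI+EV (-0.45, limma adjusted p = 0.0745) or replicate 1 (-0.37, 0.200) or 2 (-0.44, 0.0927) of sgQKI+QKI7-△KH, and at 8 h it was not lost without any library.

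Relative to control cells, COL3A1 in sgQKI+QKI7-△KH cells was at 40.5% of the sgNS+EV mean at 0 h, 37.3% at 4 h and 32.1% at 8 h. The differences were -1.27 at 0 h, -1.34 at 4 h and -1.54 at 8 h, each with SE 0.07. No gene of the 12547 had a more negative difference than COL3A1 at 8 h. Being lower than in control cells is what chose the gene, so this rank is no support for it.

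LUM in sgQKI+QKI7-WT cells was split between its 2 libraries, with replicate 1 the higher. At 4 h it had 26.3 and 19.0 in sgQKI+QKI7-WT cells, and at 8 h 12.1 and 11.1. The gap between the libraries was 30.5% of their mean at 0 h and 32.3% at 4 h, but 8.87% at 8 h. QKI was split the same way in those libraries, at 60.4 and 46.3 at 0 h and 50.5 and 32.8 at 4 h, and its part in the LUM values was not tested. LUM differed from sgQKI+EV cells by 0.19 at 0 h (SE 0.13, not tested) and by 0.16 at 8 h (95% interval -0.10 to 0.42, limma adjusted p = 0.532). It was higher at 4 h (0.41, SE 0.13, limma adjusted p = 0.0141), a call lost with library totals (0.16, limma adjusted p = 0.417), without replicate 1 of sgQKI+QKI7-WT cells at 4 h (0.18, limma adjusted p = 0.296) without replicate 2 of sgQKI+EV cells at 4 h (0.35, limma adjusted p = 0.135) and with only the compared groups in the fit (limma adjusted p = 0.206).

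LUM was higher in sgQKI+QKI7-△KH cells than in sgQKI+EV cells at 8 h, where COL3A1 was lower. At 4 h it had 20.6 and 20.8, and at 8 h 14.3 and 15.8, in sgQKI+QKI7-△KH cells, above both sgQKI+EV libraries at every time. The differences were 0.31 at 4 h (SE 0.13, limma adjusted p = 0.173) and 0.51 at 8 h (SE 0.13, limma adjusted p = 0.00403). In these contrasts 2.16% of genes at 4 h and 44.2% at 8 h were higher. At 0 h the difference was 0.60 (SE 0.13), with no test, because the low sgQKI+EV libraries chose the gene. Scaled to library totals the 0 and 8 h differences were 0.35 and 0.26, and the 8 h call was lost (limma adjusted p = 0.508), so it rests on the spike-in scale. It was also lost without replicate 2 of sgQKI+QKI7-△KH (0.44, limma adjusted p = 0.0676).

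Set against control cells, LUM in sgQKI+QKI7-WT cells differed by -0.51 at 0 h, -0.53 at 4 h and -0.63 at 8 h, each with SE 0.13. The 4 h value was -0.31 without replicate 2 of sgQKI+QKI7-WT. LUM in sgQKI+QKI7-△KH cells differed from control cells by -0.10 at 0 h, where its libraries overlapped theirs, by -0.64 at 4 h and by -0.28 at 8 h, each with SE 0.13.

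The add-backs were compared directly at matched times. The differences use no sgQKI+EV or sgNS+EV library, but their SEs and p-values draw on the spread in all 24 libraries. The 0 h result for COL3A1 was already known when the gene was chosen, so it is no independent support. COL3A1 was higher in sgQKI+QKI7-WT than in sgQKI+QKI7-△KH cells, without overlap, at 0 h (0.35, SE 0.07, limma adjusted p = 0.0141), at 4 h (0.65, SE 0.07, limma adjusted p = 9.52e-05) and at 8 h (0.41, SE 0.07, limma adjusted p = 0.00359). Few genes were: 0.0478% at 0 h, 0.821% at 4 h and 0.0478% at 8 h, where the medians of all genes were -0.15, 0.09 and -0.15. With library totals the 3 differences were 0.49, 0.56 and 0.50, and passed at each time. On the spike-in scale the 0 h call was lost without any 1 of the 4 libraries (limma adjusted p between 0.0708 and 0.111), and the 8 h call without replicate 1 of sgQKI+QKI7-WT (0.34, limma adjusted p = 0.0514). With only the compared groups in the fit, the COL3A1 calls at 0 h (limma adjusted p = 0.0623) and 4 h (limma adjusted p = 0.705) were lost. LUM differed between the add-backs by -0.40 at 0 h (95% interval -0.66 to -0.14, limma adjusted p = 0.0710), by 0.10 at 4 h (95% interval -0.16 to 0.36, limma adjusted p = 0.662) and by -0.35 at 8 h (95% interval -0.61 to -0.09, limma adjusted p = 0.0996), and did not pass at any time. The 0 h difference passed with a replicate block (limma adjusted p = 0.0454), without replicate 1 of sgQKI+QKI7-WT (-0.62, limma adjusted p = 0.0360) and with only the compared groups in the fit (limma adjusted p = 0.0188), as did that at 8 h in the last (limma adjusted p = 0.00895).

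**Figure D2:**
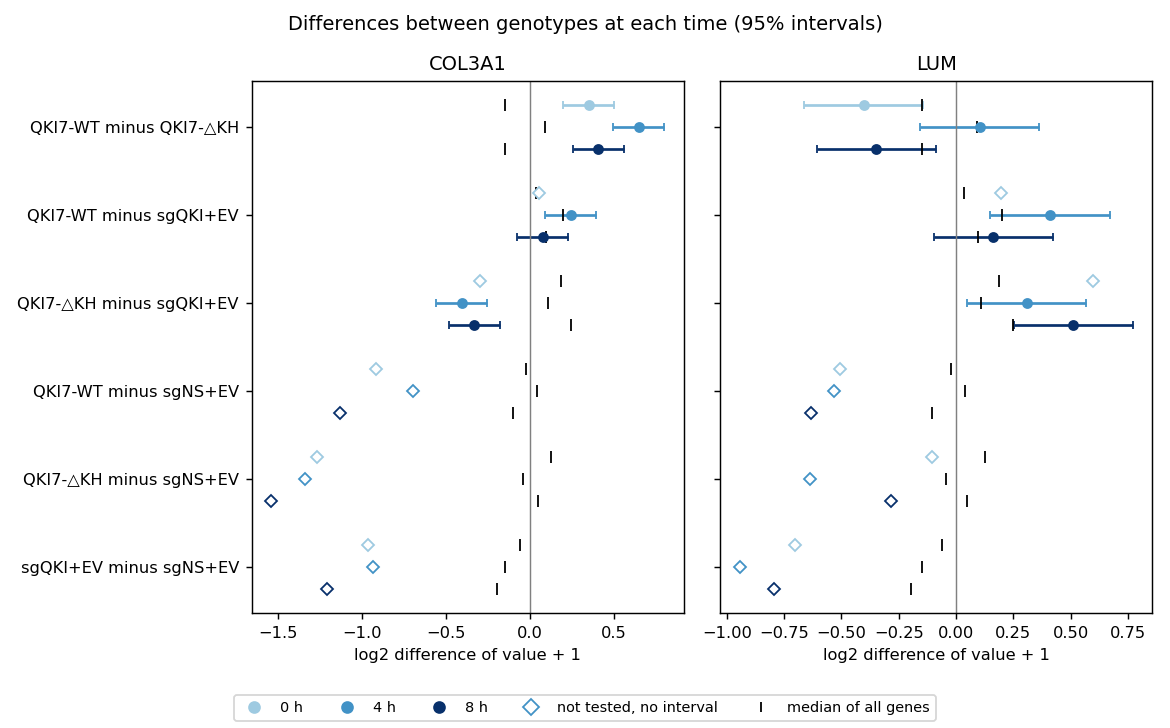
Differences between genotypes on the log2(value + 1) scale for COL3A1 (left) and LUM (right), at 0, 4 and 8 h from light to dark, with 95% intervals from limma. Black ticks are the median of all 12547 genes, and open diamonds without intervals mark comparisons that are described and not tested. COL3A1 lies to the right of the tick in QKI7-WT minus QKI7-△KH and to the left in QKI7-△KH minus sgQKI+EV, while LUM in the last lies to the right.

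During the chase the COL3A1 and LUM means went down in different intervals in control cells. Between 0 and 4 h in sgNS+EV cells COL3A1 differed by -0.84 (SE 0.07) and LUM by -0.05 (SE 0.13), when 59.8% of genes fell. Neither is tested, since the high 0 h libraries of sgNS+EV chose the genes. Between 4 and 8 h COL3A1 differed by 0.06 (95% interval -0.10 to 0.21, limma adjusted p = 0.511), when 64.9% of genes fell, and LUM fell (-0.79, SE 0.13, limma adjusted p = 1.34e-05). At 8 h, 57.3% of the 0 h mean was left for COL3A1 and 54.5% for LUM, a similar share. These values are of spike-in-scaled signal: on library totals, which remove the loss shared by most genes, COL3A1 in sgNS+EV cells differed by -0.48 and then by 0.20, and LUM by 0.31 and then by -0.65.

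The difference between the intervals, 4 to 8 h minus 0 to 4 h, was computed within each genotype after these values had been seen, and is tested in the add-back cells alone. For COL3A1 it was positive, meaning that the loss slowed, in sgQKI+QKI7-△KH cells (0.77, SE 0.13, limma adjusted p = 3.08e-04), as for 13.4% of all genes. In sgQKI+QKI7-WT cells it was 0.23 (95% interval -0.03 to 0.49, limma adjusted p = 0.156), and it passed with library totals (0.63, limma adjusted p = 3.63e-04) and with quantile normalisation (0.51, limma adjusted p = 0.00285). The untested COL3A1 values were 0.59 (SE 0.13) in sgQKI+EV and 0.89 (SE 0.13) in sgNS+EV cells. For LUM the same quantity was negative, meaning that the loss came later, in sgQKI+QKI7-WT cells (-0.81, SE 0.22, limma adjusted p = 0.00601), as for 35.6% of genes. That call was lost with library totals (-0.41, limma adjusted p = 0.224), with quantile normalisation (-0.53, limma adjusted p = 0.0873), with only the compared groups in the fit (limma adjusted p = 0.0766) and without replicate 1 at 4 h (-0.36, limma adjusted p = 0.235). In sgQKI+QKI7-△KH cells LUM was at 0.15 (limma adjusted p = 0.675), and the untested values were -0.35 in sgQKI+EV and -0.74 in sgNS+EV cells, each with SE 0.22. No test compared the genes with each other.

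Over the whole 8 h both genes were lower at the end in every genotype, and most genes fell. COL3A1 differed by -1.001 in sgQKI+QKI7-WT, -1.06 in sgQKI+QKI7-△KH, -1.02 in sgQKI+EV and -0.78 in sgNS+EV cells, each with SE 0.07. The shares of all genes that fell were 90%, 90.6%, 90.5% and 88.2% in that order, with medians of -0.77, -0.77, -0.82 and -0.70. Half-lives assume a single exponential. By the tests above the intervals differed for COL3A1 in sgQKI+QKI7-△KH cells and, not in every setting, for LUM in sgQKI+QKI7-WT cells. In sgQKI+EV and sgNS+EV cells the assumption was not tested. Read in that way, the group means gave apparent COL3A1 half-lives of 7.59, 7.05, 7.39 and 9.96 h in the same order of genotypes. LUM differed by -0.96, -1.02, -0.93 and -0.84, each with SE 0.13, with apparent half-lives of 7.70, 7.50, 8.02 and 9.13 h. Each gene's value in QKI-targeted cells was a little more negative than in control cells on the spike-in scale.

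The differences in loss between genotypes over 8 h that use sgQKI+EV or sgNS+EV cells rest on the 0 h libraries that chose the genes. They are therefore given with SEs and no test, and their size is no support. For sgQKI+EV minus sgNS+EV the decay difference was -0.24 for COL3A1 (SE 0.10) and -0.09 for LUM (SE 0.18). In this contrast 0.677% of genes passed and the median of all genes was -0.14. With quantile normalisation both turned, to 0.041 for COL3A1 and 0.15 for LUM. Between 4 and 8 h it was -0.27 for COL3A1 (95% interval -0.49 to -0.06, limma adjusted p = 0.0788) and 0.15 for LUM (95% interval -0.22 to 0.52, limma adjusted p = 0.592), where 13% of genes passed. These values are made of levels against sgNS+EV, so their tests are not independent of the choice of the genes.

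The add-backs were set against sgQKI+EV cells in the same way. Over 8 h the decay difference of sgQKI+QKI7-WT minus sgQKI+EV was 0.02 for COL3A1 (SE 0.10) and -0.03 for LUM (SE 0.18). That of sgQKI+QKI7-△KH minus sgQKI+EV was -0.03 for COL3A1 (SE 0.10) and -0.09 for LUM (SE 0.18). That between the add-backs was 0.06 for COL3A1 (95% interval -0.16 to 0.27) and 0.05 for LUM (95% interval -0.31 to 0.42), and did not pass. By limma 0 of 12547 genes passed in each of these 3 comparisons, so 0% was the background, and 344, 323 and 120 genes had an unadjusted p under 0.05. Between 4 and 8 h the add-backs differed by -0.24 for COL3A1 (limma adjusted p = 0.0998) and -0.45 for LUM (limma adjusted p = 0.0759), where 16.1% of genes passed. The LUM difference passed with a replicate block (limma adjusted p = 0.0481) and without replicate 2 of sgQKI+QKI7-WT at 4 h (-0.68, limma adjusted p = 0.00225). In a comparison with sgNS+EV cells that was added after values had been seen, the loss of COL3A1 between 4 and 8 h differed in sgQKI+QKI7-WT cells (-0.44, SE 0.10, limma adjusted p = 0.0298, where 14.9% of genes were lower). This difference is made of the 4 and 8 h levels against sgNS+EV, so its test is not independent of the choice of the gene. That call was lost with library totals (-0.13, limma adjusted p = 0.336), with quantile normalisation (-0.22, limma adjusted p = 0.558), with only the compared groups in the fit (limma adjusted p = 0.141), and without any of 4 of the 8 libraries compared.

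**Figure D3:**
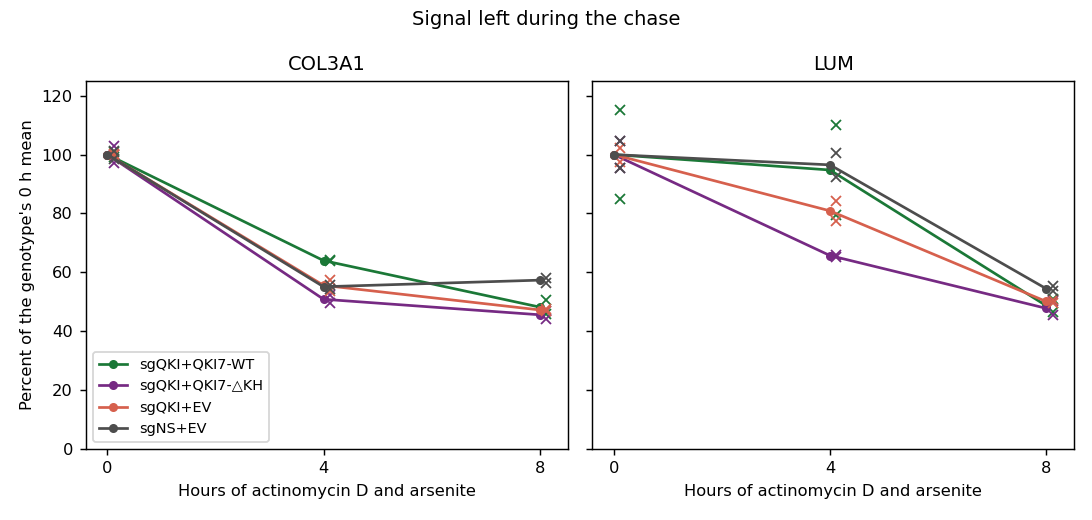
Signal left of COL3A1 (left) and LUM (right) as a percent of each genotype's own 0 h mean, over hours of actinomycin D and arsenite. Lines join means of 2 libraries and crosses are single libraries, shifted slightly to the right. In sgNS+EV cells COL3A1 is at 55.1% at 4 h and 57.3% at 8 h, while LUM is at 96.5% and 54.5%.

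The other fibrillar collagens were not lower as a group at 0 h. Of 10 others listed, 7 were measured, and 0 rose and 0 fell in sgQKI+EV against sgNS+EV cells by limma. An unadjusted p under 0.05 was found for 2 of them and for 14.1% of all genes. Their median difference was -0.06, as for all genes. COL1A1, a chain of type I collagen, averaged 443 ± 1.84 in sgQKI+EV cells and 560 ± 35.4 in sgNS+EV cells (SD, n = 2 each), a difference of -0.34 (limma adjusted p = 0.0968). COL5A2, a chain of the type V collagen that takes part in starting fibrils, differed by -0.12 (limma adjusted p = 0.477), although its gene lies 19.2 kb from COL3A1 on the opposite strand. At 4 h 2 of the 7 were higher, where 6.74% of all genes were, and 2 lower, where 34% of all genes were. At 8 h 3 were lower, COL1A1 (-0.60), COL5A2 (-0.48) and COL5A1 (-0.23), where 34% of all genes were, and with library totals these were -0.33, -0.22 and 0.04, so that COL5A1 turned. Of 17 other small leucine-rich proteoglycans listed, 2 were measured: TSKU differed by 0.05 at 0 h and was lower at 8 h (-0.45, SE 0.10, limma adjusted p = 0.00185), and PODNL1 differed by -0.29 at 0 h and -0.25 at 8 h and passed at neither. Decorin (DCN), keratocan (KERA) and epiphycan (EPYC), whose genes neighbour LUM, were not analysed here.

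**Figure D4:**
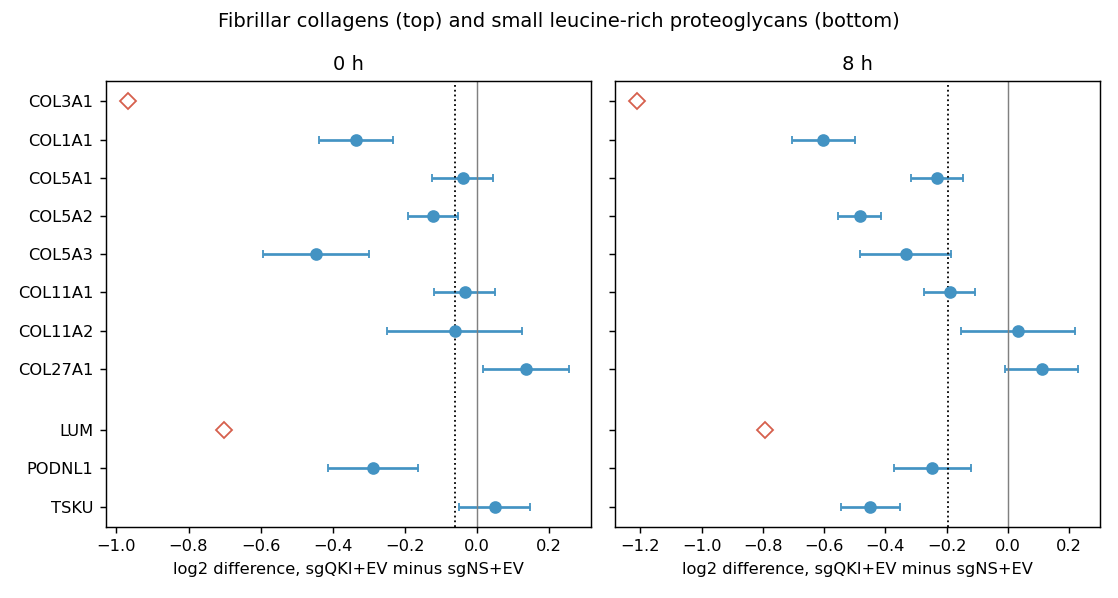
Log2 differences of sgQKI+EV minus sgNS+EV at 0 h (left) and 8 h (right) for the measured fibrillar collagens (top 8) and small leucine-rich proteoglycans (bottom 3), with bars of 1 SE from limma. Red open diamonds without bars are COL3A1 and LUM, which this contrast chose, and the dotted line is the median of all genes. At both times COL3A1 and LUM lie to the left of their measured relatives.

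Genes that make, cross-link, bind or cleave collagen were next set beside the 2 genes. Of 28 measured genes of collagen biosynthesis and crosslinking, 0 passed at 0 h by limma, with 6 at an unadjusted p under 0.05. The share of all genes with such a p at 0 h was 14.1%, which is the background for each list here. At 4 h 7 were higher and 6 lower, a median of 0.05 against -0.15 for all genes, where 6.74% of genes were higher and 34% lower. At 8 h 14 fell and 0 rose, where 34% of all genes were lower, with a median of -0.26 against -0.20 for all genes, although with library totals 3 of the 14 turned and the 14 lay between -0.15 and 0.04. The largest were CRTAP, part of the prolyl 3-hydroxylation complex (-0.42), PLOD2, a lysyl hydroxylase (-0.37), MIA3, which helps load procollagen for export (-0.35), and LOXL4, a lysyl oxidase-like enzyme (-0.35). Of 15 other collagens 0 passed at 0 h, with 3 at an unadjusted p under 0.05, 1 was higher and 2 lower at 4 h, and 6 fell at 8 h, led by COL12A1 (-0.50) and COL9A2 (-0.39), of which 2 turned with library totals (the 6 between -0.23 and 0.08). Of 6 collagen receptors 0 passed at 0 h, with 1 at an unadjusted p under 0.05, 1 was lower at 4 h, and DDR2, a tyrosine kinase receptor for fibrillar collagen, and MRC2, an endocytic collagen receptor, fell at 8 h (both -0.34; -0.08 and -0.07 with library totals). Of 15 matrix proteases and inhibitors the stromelysin MMP3 was higher at 0 h (0.37, SE 0.07, limma adjusted p = 0.0107) and 0 were lower. MMP3 was 1 of 23 genes higher at 0 h among all 12547. An unadjusted p under 0.05 at 0 h was found for 5 of the 15, a larger share than the background. At 4 h 1 was higher and 2 lower. At 8 h the collagenase MMP13 was higher (0.54, against 0.287% of genes higher), and MMP2 (-0.44), MMP16 (-0.31) and TIMP1 (-0.29) were lower, at -0.17, -0.04 and -0.01 with library totals. MMP3 also passed in the decay difference over 8 h (-0.52, SE 0.10, limma adjusted p = 0.0284). Of 19 genes of TGF-beta signalling, which is known to induce fibrillar collagen genes in mesenchymal cells, 0 passed at 0 h, with 3 at an unadjusted p under 0.05. At 4 h 2 were higher and 10 lower, a larger share than the 34% of all genes lower, with a median of -0.29 against -0.15. At 8 h 4 fell, a smaller share than the 34% of all genes, CTGF (-0.52), SMAD3 (-0.41), LTBP1 (-0.41) and LTBP3 (-0.31), at -0.29, -0.15, -0.17 and -0.04 with library totals.

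Between the add-backs at 0 h, COL3A1 went the other way from most collagens that passed. Of the 7 other fibrillar collagens COL11A1 was lower in sgQKI+QKI7-WT than in sgQKI+QKI7-△KH cells (-0.42, SE 0.08, limma adjusted p = 0.00974) and 0 were higher. Of 15 other collagens 5 were lower and 0 higher, led by COL8A1 (-0.77), COL13A1 (-0.54), COL4A2 (-0.39) and COL4A1 (-0.37). With library totals COL11A1 was at -0.28 and those 4 were between -0.63 and -0.23. The background was 3.71% of genes lower and 0.0478% higher. Among the other lists the collagen-binding integrin ITGA2 (-0.58), LOXL2 (-0.35), PCOLCE2 (-0.36), P4HA1 (-0.27), TIMP2 (-0.35) and MMP14 (-0.28) were lower, as were the TGF-beta genes LTBP1 (-0.37), TGFBR2 (-0.35) and CTGF (-0.34), and the protease MMP7 was higher (0.45, SE 0.12, limma adjusted p = 0.0425).

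The genes nearest to COL3A1 were measured in 5 of 6 cases, and none passed in sgQKI+EV against sgNS+EV cells at 0 h. Of all genes 1.55% passed in that contrast, so few calls could be looked for among 5. GULP1 differed by -0.09, TFPI by -0.26, COL5A2 by -0.12, WDR75 by -0.02 and SLC40A1 by -0.12. At 4 h all 5 were lower: GULP1 (-0.98), TFPI (-0.66), SLC40A1 (-0.59), COL5A2 (-0.36) and WDR75 (-0.22). At 8 h COL5A2 (-0.48), SLC40A1 (-0.39) and WDR75 (-0.33) were lower, and TFPI (-0.23) and GULP1 (-0.08) did not pass. Of all genes 34% were lower at 4 h and 34% at 8 h. The 6 nearest coding genes to LUM were not analysed here.

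Genes with the most similar pattern were ranked by Pearson r over the 24 libraries, on log2 values with the mean of each time removed, among 10559 genes. This describes libraries that share spike-in scaling and genotype and is no test. The most similar to COL3A1 were BHLHE41 (r = 0.9552), TBX3, PIEZO2, GPR173 and TNC. BHLHE41, a transcriptional repressor of the circadian system, averaged 56.6 in sgQKI+QKI7-WT, 53.5 in sgQKI+QKI7-△KH, 59.4 in sgQKI+EV and 87.2 in sgNS+EV cells at 0 h. TNC, the matrix glycoprotein tenascin-C, averaged 59.4, 56.1, 61.6 and 73.6 in the same order. Like COL3A1, these were highest in sgNS+EV cells and lowest in sgQKI+QKI7-△KH cells. The most similar to LUM were LINC01296 (r = 0.9723), FLJ22447, PAM, WIPI1 and SNAP23. FLJ22447, a long non-coding RNA, averaged 222 in sgQKI+QKI7-WT, 284 in sgQKI+QKI7-△KH, 219 in sgQKI+EV and 316 in sgNS+EV cells, so sgQKI+QKI7-△KH was the nearest to control, as for LUM. LUM ranked 565th for COL3A1 (r = 0.6087). QKI ranked 568th for LUM (r = 0.8244) and 815th for COL3A1 (r = 0.5517).

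The labels call the cells epithelial, and U2OS is an osteosarcoma line. Of 10 mesenchymal and osteoblast-lineage markers 5 were measured, including VIM, RUNX2 and SPARC, and their sum at 0 h was between 4430 and 4521 in sgQKI+EV libraries, against between 4628 and 4907 in sgNS+EV libraries. Most of that sum was VIM, which averaged 3566 in sgQKI+EV and 3828 in sgNS+EV cells and did not pass. Of 10 epithelial markers 5 were measured (EPCAM, KRT8, KRT14, KRT18 and CLDN4), with sums between 1198 and 1240 in sgQKI+EV libraries, against between 1187 and 1264 in sgNS+EV libraries. KRT8 (578 in sgQKI+EV and 574 in sgNS+EV cells on average) and KRT18 (610 and 622) made up most of these sums, so the other epithelial markers hardly count in them. Of 7 fibroblast markers 5 were measured, with sums between 647 and 653 in sgQKI+EV libraries, against between 753 and 815 in sgNS+EV libraries, and PDGFRA among them was lower at 0 h (-0.48, SE 0.11, limma adjusted p = 0.0268). Most of that gap was COL1A1, whose means are given above and which did not pass, while THY1 averaged 147 in sgQKI+EV and 152 in sgNS+EV cells. The sum was between 576 and 683 in sgQKI+QKI7-WT and between 683 and 757 in sgQKI+QKI7-△KH libraries, and its part in the results was not tested. In a bulk library, fewer cells of a kind and less RNA per cell cannot be told apart. CD68 was the 1 blood marker of 5 with a row, and it lay between 13.5 and 14.2 in sgQKI+QKI7-WT, 18.4 and 18.9 in sgQKI+QKI7-△KH, 13.3 and 17.7 in sgQKI+EV and 18.3 and 19.4 in sgNS+EV libraries at 0 h. The endothelial markers were not analysed here.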

How the data were processed

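PolyA RNA libraries were made with a stranded kit and sequenced by the authors, per the labels' protocols. STAR, RSEM and the build GRCh38 appear in the submitters' processing notes, with no version. The deposited table holds a linear signal for 12547 endogenous rows and 38 ERCC rows. It is read as scaled to the spike-in from its values, since the ERCC rows sum to between 11485 and 11940 in every library while endogenous sums fall with time. The unit before that step, and the basis on which spike-in RNA was added (cells or RNA mass), are not given in the sources used here. The table holds no counts, so depth is unknown and precision comes from replicate libraries. The lowest value was 0.641.

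Groups were taken from sample titles. The column headings write KH without the deletion sign for sgQKI+QKI7-△KH. Requiring a value of 1 or more in 2 or more libraries removed 0 genes. A model with 12 group means was fitted to log2(value + 1) of 24 libraries. The software was R 4.3.3 and limma 3.58.1, the mean-variance trend was used, and there were 12 residual and 9.004 prior degrees of freedom. A fold on this scale understates the change of low genes. Tests were two-sided. Decay differences are interaction terms. The fit was run on simulated data with known changes and independent noise for each gene and library. Shifts shared by the genes of a library were not simulated, so the run cannot speak to them. The members, lists and markers were chosen with earlier results of these data known, and no pattern already seen there is independent support. The levels of COL3A1 and LUM are not tested against sgNS+EV at any time. Nor is any comparison of theirs that uses the 0 h libraries of sgQKI+EV or sgNS+EV, although tests had been planned for some of these. Their differences in loss from sgNS+EV between 4 and 8 h are tested, but are not independent of the choice. Named genes were COL3A1, LUM and QKI, up to 4 passing members of each list with the largest changes, the 5 genes most like each member with a mean of at least 5, and measured neighbours. PDGFRA, COL5A2, COL1A1, TSKU and PODNL1 at other contrasts, and all measured markers, are given besides. Decay differences of the add-backs against sgNS+EV and the difference between intervals were added after values were seen. Alternatives were library totals, quantile normalisation, a pseudocount of 0.1, no filter, a filter of 5, no trend, only the compared groups, a replicate block, 4 h as the end point and leaving out each library. Transcript positions and motif counts are from GENCODE on GRCh38. Promoters and proteins of the members were not used here, and 1 passing list member is not reported here.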

Additional observations from a re-analysis of the deposited data

Results flagged for a closer look

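A difference in loss between genotypes passed its own test in 1 case, in a comparison with sgNS+EV added after the values were seen. It is made of the 4 and 8 h levels against sgNS+EV, which are themselves not tested. The test is therefore not independent of the choice of the gene, and is no support for it. COL3A1 lost more signal between 4 and 8 h in sgQKI+QKI7-WT than in sgNS+EV cells, a decay difference of -0.44 (SE 0.10, limma adjusted p = 0.0298). COL3A1 changed by -0.39 in that interval in sgQKI+QKI7-WT cells and by 0.06 in sgNS+EV cells, and 14.9% of all genes were lower in the same test, with a median of -0.16. The call was lost without replicate 1 (-0.46, limma adjusted p = 0.0549) or 2 (-0.42, limma adjusted p = 0.0862) of sgNS+EV at 4 h, replicate 2 of sgNS+EV at 8 h (-0.42, limma adjusted p = 0.162) or replicate 2 of sgQKI+QKI7-WT at 8 h (-0.37, limma adjusted p = 0.190). It was also lost with library totals (-0.13, limma adjusted p = 0.336), quantile normalisation (-0.22, limma adjusted p = 0.558), no mean-variance trend (limma adjusted p = 0.0652) and only the compared groups in the fit (limma adjusted p = 0.141). Over 0 to 8 h, which is not tested, the difference was -0.22.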

How the results depend on the processing

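Results below are written as the gene, the comparison and the value, with WT for sgQKI+QKI7-WT, △KH for sgQKI+QKI7-△KH, sgQKI for sgQKI+EV and sgNS for sgNS+EV. "Loss" is a decay difference, and "late minus early" is the change from 4 to 8 h minus that from 0 to 4 h. Of 96 results, 48 have a test. Those that kept their direction and side of the threshold, or without a test stayed within the spread between replicates, were 96 with no filter and with a filter of 5, 95 with no mean-variance trend, 94 with the replicate block, 90 with a pseudocount of 0.1, 87 with only the compared groups, 46 with library totals and 42 with quantile normalisation. Of 12 results, 3 did so with 4 h as the end point. The causes were not tested, but library totals and quantile normalisation remove by construction the loss shared by most genes. With library totals, the value moved beyond the spread between replicates for COL3A1 sgQKI v sgNS at 0 h (-0.79), sgQKI v sgNS at 8 h (-0.96), △KH v sgQKI at 0 h (-0.54), WT v sgNS at 0 h (-0.84), WT v sgNS at 4 h (-0.92), WT v sgNS at 8 h (-1.05), △KH v sgNS at 0 h (-1.33), △KH v sgNS at 4 h (-1.48), sgQKI change 0 to 4 h (-0.61), sgQKI change 0 to 8 h (-0.44), sgNS change 0 to 4 h (-0.48), sgNS change 0 to 8 h (-0.28), sgQKI v sgNS loss 0 to 8 h (-0.17), △KH v sgNS loss 0 to 4 h (-0.15), △KH v sgNS loss 0 to 8 h (-0.22), sgQKI late minus early (0.77), sgNS late minus early (0.68). The value moved beyond the spread between replicates for LUM sgQKI v sgNS at 0 h (-0.53), sgQKI v sgNS at 8 h (-0.54), △KH v sgQKI at 0 h (0.35), WT v sgNS at 4 h (-0.76), △KH v sgNS at 4 h (-0.78), sgQKI change 0 to 4 h (-0.091), sgQKI change 0 to 8 h (-0.36), sgNS change 0 to 8 h (-0.34), WT v sgNS loss 0 to 4 h (-0.33), sgQKI late minus early (-0.18), sgNS late minus early (-0.95). Calls were lost for COL3A1 WT v sgNS loss 4 to 8 h (-0.13). Calls were lost for LUM WT v sgQKI at 4 h (0.16), △KH v sgQKI at 8 h (0.26), △KH change 4 to 8 h (-0.15), sgQKI change 4 to 8 h (-0.27), WT late minus early (-0.41). Calls were gained for COL3A1 sgNS change 4 to 8 h (0.20), WT late minus early (0.63). Calls were gained for LUM △KH v sgNS loss 4 to 8 h (0.50). The direction turned for COL3A1 WT v sgQKI at 0 h (-0.050), WT v sgQKI at 4 h (-0.00068), WT v sgQKI at 8 h (-0.092), WT change 4 to 8 h (0.072), △KH change 4 to 8 h (0.13), sgQKI change 4 to 8 h (0.16), WT v sgQKI loss 0 to 8 h (-0.041), △KH v sgQKI loss 4 to 8 h (-0.031), WT v sgNS loss 0 to 4 h (-0.076). The direction turned for LUM WT v sgQKI at 8 h (-0.0015), sgNS change 0 to 4 h (0.31), WT v △KH loss 0 to 8 h (-0.0017), WT v sgNS loss 4 to 8 h (0.22). With quantile normalisation, the value moved beyond the spread between replicates for COL3A1 sgQKI v sgNS at 4 h (-0.74), sgQKI v sgNS at 8 h (-0.95), △KH v sgQKI at 0 h (-0.49), WT v sgNS at 8 h (-0.96), △KH v sgNS at 0 h (-1.47), △KH v sgNS at 4 h (-1.21), sgQKI change 0 to 4 h (-0.27), sgQKI change 0 to 8 h (-0.029), sgNS change 0 to 4 h (-0.51), sgNS change 0 to 8 h (-0.069), △KH v sgNS loss 0 to 8 h (-0.030), sgQKI late minus early (0.50), sgNS late minus early (0.96). The value moved beyond the spread between replicates for LUM sgQKI v sgNS at 4 h (-0.77), sgQKI v sgNS at 8 h (-0.55), △KH v sgQKI at 0 h (0.44), WT v sgNS at 8 h (-0.48), △KH v sgNS at 0 h (-0.26), sgNS change 0 to 8 h (-0.059), △KH v sgNS loss 0 to 4 h (-0.32). Calls were lost for COL3A1 WT v sgQKI at 4 h (0.0018), WT change 0 to 8 h (-0.067), △KH change 0 to 8 h (-0.099), WT v sgNS loss 4 to 8 h (-0.22). Calls were lost for LUM WT v sgQKI at 4 h (0.17), △KH v sgQKI at 8 h (0.25), WT change 4 to 8 h (-0.27), WT change 0 to 8 h (-0.0040), △KH change 4 to 8 h (-0.11), △KH change 0 to 8 h (-0.099), sgQKI change 4 to 8 h (-0.17), WT late minus early (-0.53). Calls were gained for COL3A1 sgNS change 4 to 8 h (0.44), WT late minus early (0.51). The direction turned for COL3A1 WT v sgQKI at 8 h (-0.014), WT change 4 to 8 h (0.22), △KH change 4 to 8 h (0.15), sgQKI change 4 to 8 h (0.24), sgQKI v sgNS loss 0 to 8 h (0.041), WT v sgQKI loss 0 to 8 h (-0.038), △KH v sgQKI loss 4 to 8 h (-0.090), WT v △KH loss 4 to 8 h (0.074), WT v sgNS loss 0 to 8 h (0.0028), △KH v sgNS loss 0 to 4 h (0.27). The direction turned for LUM WT v △KH at 4 h (-0.020), WT change 0 to 4 h (0.26), △KH change 0 to 4 h (0.010), sgQKI change 0 to 4 h (0.27), sgQKI change 0 to 8 h (0.093), sgNS change 0 to 4 h (0.33), sgQKI v sgNS loss 0 to 8 h (0.15), WT v sgNS loss 4 to 8 h (0.12), WT v sgNS loss 0 to 8 h (0.055), △KH late minus early (-0.12). With a pseudocount of 0.1, the value moved beyond the spread between replicates for COL3A1 sgQKI v sgNS at 8 h (-1.27), WT v sgNS at 8 h (-1.19), △KH v sgNS at 4 h (-1.41), △KH v sgNS at 8 h (-1.63), sgQKI change 0 to 8 h (-1.08), △KH v sgNS loss 0 to 8 h (-0.33). With only the compared groups in the fit, calls were lost for COL3A1 WT v sgQKI at 4 h (0.24), WT v △KH at 0 h (0.35), WT v △KH at 4 h (0.65), WT v sgNS loss 4 to 8 h (-0.44). Calls were lost for LUM WT v sgQKI at 4 h (0.41), WT late minus early (-0.81). Calls were gained for LUM WT v △KH at 0 h (-0.40), WT v △KH at 8 h (-0.35), △KH v sgNS loss 4 to 8 h (0.35). With 4 h as the end point, the value moved beyond the spread between replicates for COL3A1 WT v sgQKI loss 0 to 8 h (0.19), △KH v sgQKI loss 0 to 8 h (-0.11), △KH v sgNS loss 0 to 8 h (-0.076). The value moved beyond the spread between replicates for LUM sgQKI v sgNS loss 0 to 8 h (-0.24), △KH v sgQKI loss 0 to 8 h (-0.29), △KH v sgNS loss 0 to 8 h (-0.53). The direction turned for COL3A1 sgQKI v sgNS loss 0 to 8 h (0.031), WT v sgNS loss 0 to 8 h (0.22). The direction turned for LUM WT v sgQKI loss 0 to 8 h (0.21). With no mean-variance trend, calls were lost for COL3A1 WT v sgNS loss 4 to 8 h (-0.44). With the replicate block, calls were gained for LUM WT v △KH at 0 h (-0.40), WT v △KH loss 4 to 8 h (-0.45). Leaving out 1 library changed a call or direction, or moved an untested value beyond the spread, for COL3A1 in sgQKI v sgNS at 4 h (-0.99 to -0.89), WT v sgQKI at 4 h (0.19 to 0.29), △KH v sgQKI at 4 h (-0.45 to -0.36), WT v △KH at 0 h (0.31 to 0.39), WT v △KH at 8 h (0.34 to 0.47), WT v sgNS at 8 h (-1.20 to -1.07), sgQKI change 0 to 4 h (-0.86 to -0.76), sgQKI change 4 to 8 h (-0.27 to -0.17), sgQKI v sgNS loss 4 to 8 h (-0.32 to -0.23), WT v sgQKI loss 0 to 8 h (-0.044 to 0.091), △KH v sgQKI loss 0 to 8 h (-0.075 to 0.0081), WT v △KH loss 0 to 8 h (-0.010 to 0.12), WT v sgNS loss 4 to 8 h (-0.51 to -0.37), WT v sgNS loss 0 to 8 h (-0.29 to -0.15), sgQKI late minus early (0.49 to 0.69). Leaving out 1 library changed a call or direction, or moved an untested value beyond the spread, for LUM in WT v sgQKI at 0 h (-0.019 to 0.41), WT v sgQKI at 4 h (0.18 to 0.63), △KH v sgQKI at 8 h (0.44 to 0.58), WT v △KH at 0 h (-0.62 to -0.19), WT v △KH at 4 h (-0.12 to 0.33), WT v sgNS at 0 h (-0.72 to -0.30), WT v sgNS at 4 h (-0.76 to -0.31), WT change 0 to 4 h (-0.30 to 0.15), △KH change 4 to 8 h (-0.50 to -0.37), sgNS change 0 to 4 h (-0.12 to 0.016), WT v sgQKI loss 4 to 8 h (-0.47 to -0.023), WT v sgQKI loss 0 to 8 h (-0.25 to 0.18), WT v △KH loss 4 to 8 h (-0.68 to -0.23), WT v △KH loss 0 to 8 h (-0.16 to 0.27), WT v sgNS loss 0 to 4 h (-0.25 to 0.20), WT v sgNS loss 4 to 8 h (-0.32 to 0.13), WT v sgNS loss 0 to 8 h (-0.34 to 0.090), WT late minus early (-1.26 to -0.36). For 63 of 96 results no left-out library did so. Replicate numbers did not pair the libraries: over 66 pairs of groups their deviations correlated with r between -0.42 and 0.48 (median -0.02), and 21 were over 0.1. The replicate block changed the 2 calls given above and no other. Without counts, depth sets no stated limit here. With 2 libraries a group and a spike-in whose addition is not described, a difference shared by most genes has no known meaning per cell.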
